A study of Homo sapiens with 6 samples.

Results

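The eukaryotic translation initiation factors are the proteins that bring the ribosome, the initiator tRNA and the messenger RNA together. They were taken as the protein-coding genes of the expression table whose symbol begins with EIF and a digit from 1 to 6, without the kinases whose symbol begins with EIF2AK, which gave 52 of 58735 genes. RNA was sequenced from SW480, an established colorectal cancer cell line, after transfection with an siRNA against ITGB4 (3 libraries) or with a negative control siRNA (3 libraries). The labels give every library the genotype WT and state that replicates were biological. They name neither the siRNA sequences, nor the time after transfection, nor a second siRNA against ITGB4, so an effect of depletion and an effect of this siRNA on other transcripts cannot be told apart. The series title places integrin β4 upstream of ezrin and the Wnt/β-catenin pathway, and the comparison of the initiation factors shows whether their transcripts differed when ITGB4 was lowered.

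Initiation begins when eIF2, loaded with GTP and initiator tRNA, joins eIF1, eIF1A, eIF3 and eIF5 on the small ribosomal subunit. The cap-binding protein eIF4E, the scaffold eIF4G and the helicase eIF4A recruit this complex to the capped end of an mRNA, and eIF5B then joins the large subunit. Control acts mainly on the proteins: kinases phosphorylate eIF2α and so block its recycling by eIF2B, and mTOR phosphorylates the eIF4E binding proteins and so frees eIF4E. The factor eIF6, which keeps free large subunits apart from small ones, is also known as a binding partner of the cytoplasmic tail of integrin β4. RNA levels, the only quantity measured here, do not report phosphorylation or the rate of translation.

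Some factor genes share a feature of their start. Messenger RNAs that begin with a C followed by a run of C and T are known as terminal oligopyrimidine (TOP) mRNAs, whose translation depends on mTOR. Of the 52 genes, 44 matched a promoter window in RefSeq (GRCh38.p14, 250 bases before to 50 bases after an annotated start). In 8 of these 44 (18.2%) the first bases of the transcript read CTCTT or CTTTT on the gene's strand, against 1.78% of the 8488 tested protein-coding genes with a window. The 44 include EIF1AY, EIF4E1B, EIF4E3 and EIF4EBP3, which were not tested, so here and in the next paragraph the sets compared are not quite alike. These letters were chosen after the start sequences had been seen, and a gene counted if any of its windows matched. The 8 windows follow, 20 bases on each side of the boundary, because they show the shared start, which is in capitals.
EIF2S3: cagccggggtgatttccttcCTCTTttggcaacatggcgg
EIF2S3B: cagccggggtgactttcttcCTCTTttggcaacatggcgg
EIF2A: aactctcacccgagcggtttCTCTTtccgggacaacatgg
EIF3D: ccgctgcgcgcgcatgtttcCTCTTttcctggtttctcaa
EIF3K: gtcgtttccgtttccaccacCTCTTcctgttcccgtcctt
EIF3M: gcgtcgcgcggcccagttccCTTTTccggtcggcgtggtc
EIF4A2: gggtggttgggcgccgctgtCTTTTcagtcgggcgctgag
EIF4B: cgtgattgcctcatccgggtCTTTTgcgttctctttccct
They lie at chrX:24054936-24054975 (EIF2S3, plus strand), chr12:10505870-10505909 (EIF2S3B, plus), chr3:150546767-150546806 (EIF2A, plus), chr22:36529147-36529186 (EIF3D, minus), chr19:38619168-38619207 (EIF3K, plus), chr11:32583811-32583850 (EIF3M, plus), chr3:186783557-186783596 (EIF4A2, plus) and chr12:53006436-53006475 (EIF4B, plus). EIF2S3 and EIF2S3B, near copies of each other on different chromosomes, were identical at 38 of 40 bases.

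Short words were also counted anywhere in the windows, on both strands. The E-box CACGTG, which MYC and related factors bind, was present for 11 of 44 factor genes (25%) and for 13.1% of the tested protein-coding genes with a window. The word CCGGAAGT, part of the ETS family motif, was present for 9 of 44 (20.5%) and 10.9%. The GC box GGGCGG was present for 33 (75%) and 79.8%, CCAAT for 19 (43.2%) and 43.1%, and TATAAA for 2 (4.55%) and 7.34%. The words TGACGTCA and TGATGCAA were found for 0 of 44 factor genes, against 4.03% and 0.601%. The 4 tested factors with the smallest p-values in the comparison below all held an E-box, which was noticed after the values were seen. None of the 4 was called changed (limma adjusted p of 0.813 to 0.946), and the next factor by p, EIF3I, held no E-box. The windows of these 4 are shown with an E-box in capitals. That of EIF5A2 holds another CACGTG, left in lower case near its left end.
EIF3F: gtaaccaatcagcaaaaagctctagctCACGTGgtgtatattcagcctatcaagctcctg
EIF4H: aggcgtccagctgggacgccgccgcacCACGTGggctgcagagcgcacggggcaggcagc
EIF5A2: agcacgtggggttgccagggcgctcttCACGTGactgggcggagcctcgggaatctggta
EIF1B: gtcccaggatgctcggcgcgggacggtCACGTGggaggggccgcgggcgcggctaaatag
They lie at chr11:7987242-7987301 (EIF3F, plus strand), chr7:74174130-74174189 (EIF4H, plus), chr3:170908767-170908826 (EIF5A2, minus) and chr3:40309626-40309685 (EIF1B, plus). The window of EIF3F follows a RefSeq start and lies well inside the gene span the authors deposited (7970251 to 8001862). EIF3F was higher with ITGB4 siRNA and the other 3 were lower, so these 4 did not share a direction. Of the 10 tested factors with an E-box, 4 had a log2 fold change above 0 and 6 below, with a median of -0.03.

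The libraries held 13715266 to 15496274 reads recovered from FPKM (the authors' deposited unit, fragments relative to gene length and library size), and the 52 factors took 1.21% to 1.23% of them with ITGB4 siRNA and 1.2% to 1.25% with control siRNA. ITGB4, the siRNA target, was at 41.1, 38.1 and 37.9 FPKM with ITGB4 siRNA, against 74.3, 63.8 and 69.8 FPKM with control siRNA (log2 fold change -0.81, limma adjusted p = 0.0148). Without ITGB4 siRNA library 1, 2 or 3 or control library 3, its limma adjusted p was 0.0709, 0.137, 0.0968 and 0.0996, with the log2 fold change between -0.85 and -0.79. With no filter on low values its limma adjusted p was 0.0618. The epithelial markers EPCAM, KRT8, KRT18, KRT19, CDH1 and CDX2 were all expressed, and VIL1 and CDX1 had means under 1 FPKM. Their summed level was 1523 to 1564 FPKM with ITGB4 siRNA and 1471 to 1649 with control siRNA. None of 12 markers of leukocytes, fibroblasts and endothelium reached a mean of 1 FPKM, and together they summed to 1.37 to 1.43 FPKM with ITGB4 siRNA and 1.22 to 2.07 with control siRNA.

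No initiation factor was called changed. Of the 52 genes, 48 had a mean of at least 1 FPKM over the 6 libraries and were tested. EIF4E3 and EIF4EBP3 averaged 0.182 and 0.272 FPKM over the 6 libraries, EIF4E1B was listed at 0 in each library, and EIF1AY was also below this filter. In limma, fitted to log2(FPKM + 1) over all 12871 genes tested with Benjamini-Hochberg adjustment, 0 of the 48 had an adjusted p under 0.05 (limma-voom on the recovered reads also called 0), against 0.0466% of all genes tested. At an unadjusted p under 0.05 there were 2, EIF3F higher and EIF4H lower, or 4.17% against a background of 5.83%, and limma-voom also gave 2, EIF3F and EIF5A2. The log2 fold changes of the 48 ran from -0.21 to 0.12, with 25 above 0, 23 below and a median of 0.00, and the median of all genes tested was also 0.00. Without overlap of the library values, 2 factors, EIF3F and EIF3I, were higher with ITGB4 siRNA (4.17%, background 5.75%) and 4, EIF1B, EIF3A, EIF4G3 and EIF4H, were lower (8.33%, background 5.36%).

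**Figure D1:**
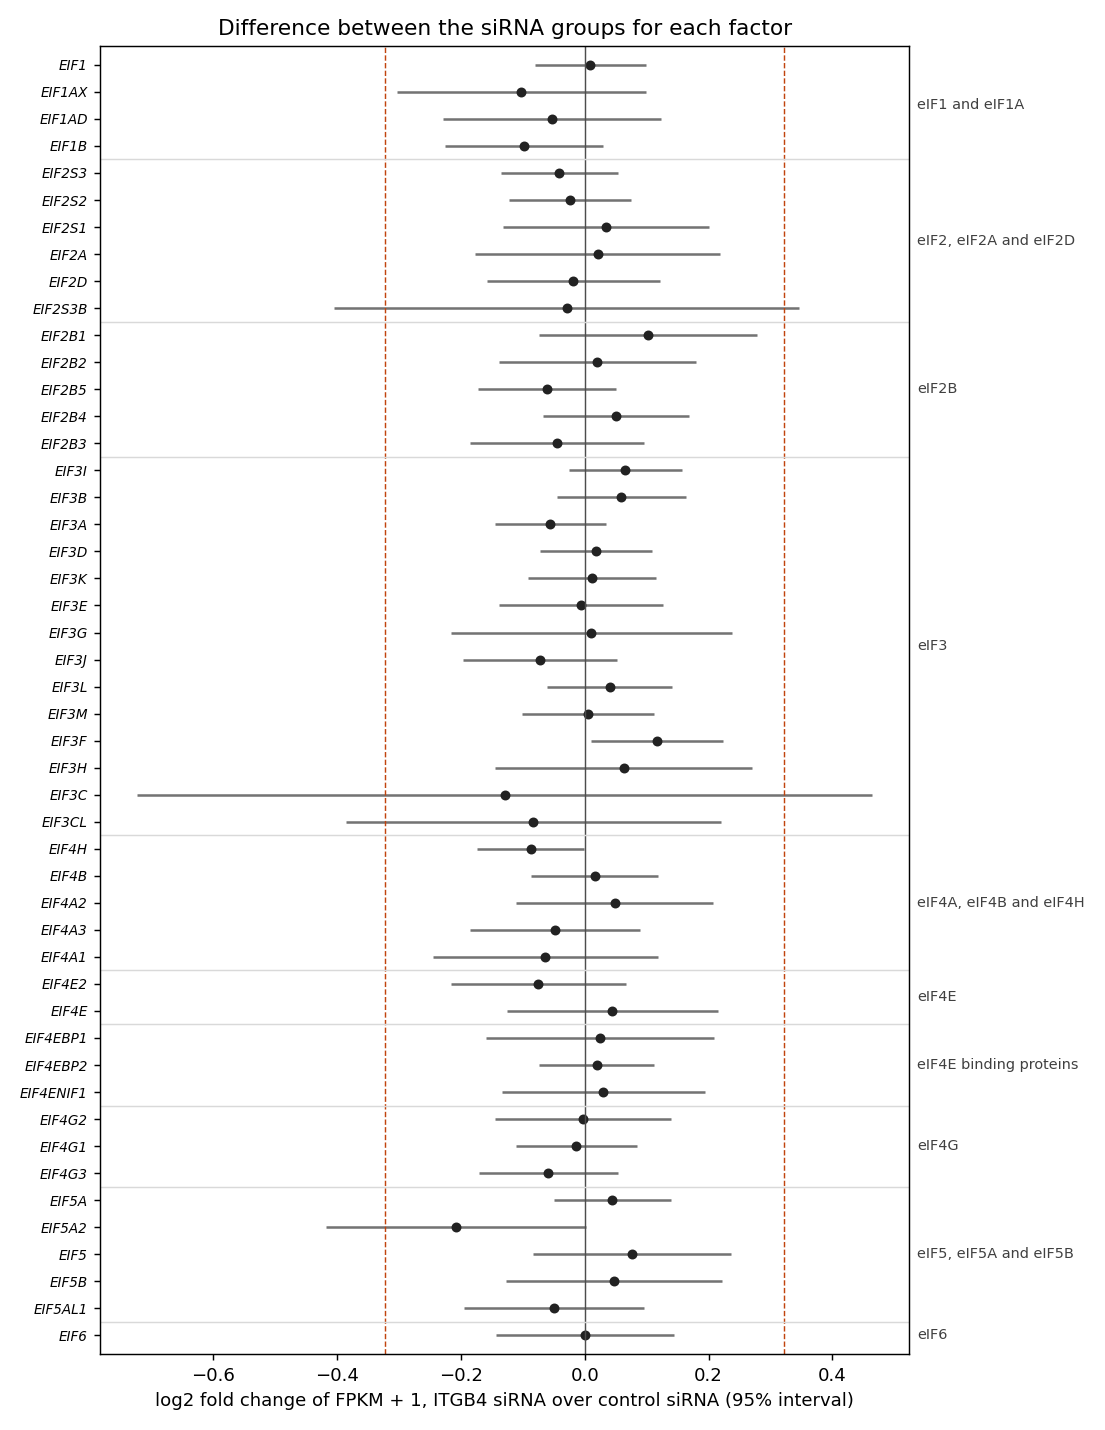
The log2 fold change of FPKM + 1, ITGB4 siRNA over control siRNA, is plotted for each of the 48 tested factors with its 95% interval, ordered by factor and by level, and the dashed lines mark 1.25-fold either way. Every point lies between -0.21 and 0.12, and the intervals of EIF3C, EIF3CL, EIF2S3B and EIF5A2 are the ones that cross a dashed line.

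With ITGB4 RNA lowered only in part (a difference of -43.7% in mean FPKM), the data bound most single-gene differences tightly. The intervals are not adjusted for the number of genes. In 44 of the 48 factors the 95% interval, for FPKM + 1, lay within 1.25-fold in both directions (91.7%, against 67.8% of all genes tested). The exceptions were EIF3C, EIF3CL, EIF2S3B and EIF5A2. Adding 1 narrows the intervals of low genes such as EIF4A1 (2.54 FPKM), so for these the 1.25-fold is no bound on FPKM itself. The factors are abundant, with a median level of 35.3 FPKM against 6.24 FPKM for all genes tested, and their median coefficient of variation within a group was 4.46%, against 7.59%.

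**Figure D2:**
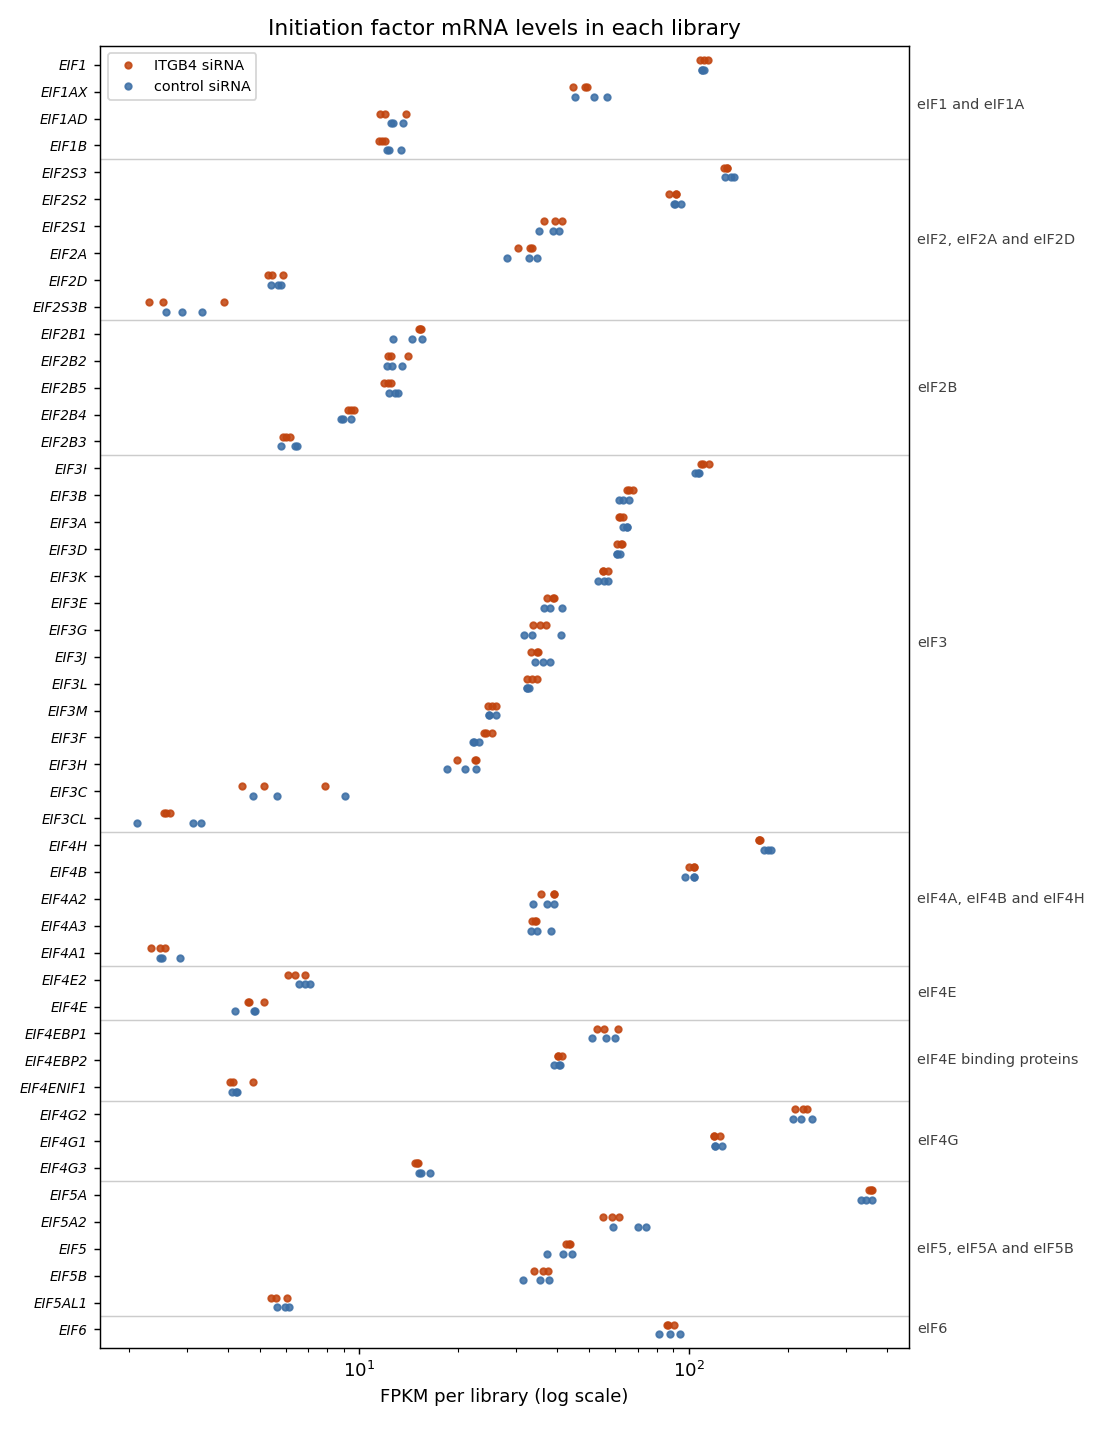
Each point is the FPKM of a library on a log axis, for the 48 tested factors ordered by factor and by mean level, with ITGB4 siRNA drawn above control siRNA. The groups separate in 6 rows (EIF3F, EIF3I, EIF1B, EIF3A, EIF4G3 and EIF4H), while the factors span 2.54 to 351.7 FPKM in their mean over the 6 libraries.

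eIF1 and eIF1A open the small subunit for scanning and help it to recognise the start codon. EIF1 (chromosome 17, 41688885 to 41692668, plus strand) was at 111.2, 108.3 and 114.5 FPKM with ITGB4 siRNA, against 111.8, 110.0 and 110.0 FPKM with control siRNA. Its groups overlapped, and its log2 fold change was 0.01 (95% interval -0.08 to 0.10). EIF1B, a close relative of EIF1 (chromosome 3, 40309684 to 40312424, plus strand), was at 11.7, 12.0 and 11.5 FPKM with ITGB4 siRNA, against 12.2, 13.4 and 12.3 FPKM with control siRNA. Every ITGB4 siRNA value was under every control value, a difference of -7.17% that did not pass (log2 fold change -0.10, SE 0.0538, limma adjusted p = 0.946; exact permutation p = 0.1, the smallest that 3 against 3 libraries allow). EIF1AX, the X-linked gene of eIF1A, averaged 47.5 ± 2.46 FPKM with ITGB4 siRNA and 51.2 ± 5.66 FPKM with control siRNA. EIF1AD, an eIF1A-domain protein, averaged 12.5 ± 1.22 FPKM with ITGB4 siRNA and 12.9 ± 0.564 FPKM with control siRNA (SD, n = 3 each). Both had overlapping groups.

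eIF2 carries the initiator tRNA and is built of the α (EIF2S1), β (EIF2S2) and γ (EIF2S3) subunits. Per length, the level of γ was highest of the 3 and that of α lowest, with means over the 6 libraries of 131.8 FPKM for EIF2S3, 91.0 for EIF2S2 and 38.6 for EIF2S1, and the 3 did not overlap in level in any library. EIF2S3 (chromosome X, 24054716 to 24077971, plus strand) was at 128.0, 131.3 and 130.4 FPKM with ITGB4 siRNA, against 129.0, 137.7 and 134.4 FPKM with control siRNA. The groups overlapped (log2 fold change -0.04, 95% interval -0.14 to 0.05, limma adjusted p = 0.998). EIF2S1, the subunit that stress kinases phosphorylate, averaged 39.0 ± 2.51 FPKM with ITGB4 siRNA and 38.1 ± 2.69 FPKM with control siRNA (SD, n = 3 each). EIF2A and EIF2D, which deliver initiator tRNA by other routes, averaged 32.1 and 5.59 FPKM over the 6 libraries, with log2 fold changes of 0.02 and -0.02. The copy EIF2S3B was listed at 2.92 ± 0.863 FPKM with ITGB4 siRNA and 2.95 ± 0.373 FPKM with control siRNA (SD, n = 3 each), from 87 to 131 reads per library.

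eIF2B exchanges GDP for GTP on eIF2 and has the subunits α to ε (EIF2B1 to EIF2B5). All 5 were of lower level than EIF2S1, EIF2S2 and EIF2S3, from 6.13 FPKM for EIF2B3 to 14.8 FPKM for EIF2B1 in the mean of the 6 libraries. EIF2B1 (chromosome 12, 123620406 to 123633766, minus strand) was at 15.3, 15.2 and 15.4 FPKM with ITGB4 siRNA, against 12.7, 15.6 and 14.4 FPKM with control siRNA. The groups overlapped, the control libraries being the more spread, and the log2 fold change was 0.10 (95% interval -0.07 to 0.28, limma adjusted p = 0.998). The summed level of the 5 subunits was 55.3, 57.1 and 55.3 FPKM with ITGB4 siRNA, against 53.8, 56.1 and 55.4 FPKM with control siRNA.

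eIF3 is the largest factor, a scaffold of many subunits on the small ribosomal subunit, and 14 genes with its name were tested, with 9 above 0 and 5 below and a median of 0.01. EIF3F (chromosome 11, 7970251 to 8001862, plus strand), a subunit with an MPN domain, was at 23.9, 25.3 and 24.4 FPKM with ITGB4 siRNA, against 22.4, 23.2 and 22.1 FPKM with control siRNA. Every ITGB4 siRNA value was over every control value, a difference of 8.79% (log2 fold change 0.12, SE 0.0447, 95% interval 0.01 to 0.22). It had the smallest p of the factors (unadjusted p = 0.0357) and missed the threshold (limma adjusted p = 0.813; exact permutation p = 0.1), and without single libraries its unadjusted limma p ran up to 0.136. EIF3I (chromosome 1, 32221928 to 32231604, plus strand), a WD-repeat subunit, was at 109.0, 115.0 and 110.3 FPKM with ITGB4 siRNA, against 106.9, 105.0 and 107.5 FPKM with control siRNA, again without overlap (4.70%; log2 fold change 0.07, limma adjusted p = 0.976). EIF3A, the largest subunit of the core, also did not overlap, in the other direction, at 63.1, 61.3 and 61.7 FPKM with ITGB4 siRNA and 63.2, 65.2 and 65.3 FPKM with control siRNA (-3.84%; -0.06, limma adjusted p = 0.998). EIF3F may share reads with the processed pseudogene EIF3FP3. This copy was listed at 6.73 ± 1.27 FPKM with ITGB4 siRNA and 5.57 ± 1.06 FPKM with control siRNA (SD, n = 3 each), with overlapping groups.

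The eIF3 subunits sit in a single complex, yet their listed levels in FPKM differed widely. EIF3I was highest at 108.9 FPKM in the mean of the 6 libraries, followed by EIF3B (64.9), EIF3A (63.3), EIF3D (61.5) and EIF3K (55.4). Among these, EIF3B and EIF3A, and EIF3A and EIF3D, had library values that ran into each other. EIF3E (38.5), EIF3G (35.4), EIF3J (35.2) and EIF3L (33.0) came next, each overlapping its neighbour in this order. EIF3M (25.2), EIF3F (23.5) and EIF3H (21.2) followed, again with overlapping neighbours, and only EIF3C and EIF3CL were lower. The level per length depends on the gene length that the authors used, which was 1725 bases for EIF3I and 9431 for EIF3F. In reads per library the order of these genes was the reverse, with 2604 to 3030 for EIF3I and 3124 to 3650 for EIF3F. Summed over the 14 genes the level was 571.7, 582.4 and 581.9 FPKM with ITGB4 siRNA, against 572.9, 575.1 and 565.4 FPKM with control siRNA, and the sums overlapped.

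EIF3C and EIF3CL stood apart from the other subunits. They are near-identical copies on chromosome 16 (28688558 to 28735730, plus strand, and 28379579 to 28403879, minus strand), so reads of either can be assigned to both or to neither, and how the authors treated such reads is not given in the sources used here. EIF3C was at 4.42, 5.14 and 7.86 FPKM with ITGB4 siRNA, against 9.07, 5.65 and 4.76 FPKM with control siRNA, and EIF3CL was at 2.66, 2.56 and 2.60 FPKM with ITGB4 siRNA, against 2.12, 3.14 and 3.31 FPKM with control siRNA. EIF3C is a core subunit, and its coefficient of variation within a group, 33.2%, was the highest of the 48 factors. Its log2 fold change of -0.13 had a 95% interval from -0.72 to 0.46, and without 1 library it ran from -0.34 to 0.10, so its direction is not settled. Both values are uncertain as levels of the protein's mRNA.

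eIF4A unwinds the leader of the mRNA, helped by eIF4B and eIF4H. EIF4H (chromosome 7, 74174245 to 74197101, plus strand) was at 163.8, 163.9 and 164.2 FPKM with ITGB4 siRNA, against 178.5, 169.5 and 174.8 FPKM with control siRNA. Every ITGB4 siRNA value was under every control value, with an SD of 0.234 FPKM for ITGB4 siRNA and 4.48 FPKM for control siRNA, and the difference was -5.92% (log2 fold change -0.09, SE 0.0364, 95% interval -0.17 to 0.00). It missed the threshold after adjustment (unadjusted p = 0.0484, limma adjusted p = 0.852; exact permutation p = 0.1), and with limma-voom its unadjusted p was 0.063. A microRNA gene, MIR590, overlaps EIF4H on the same strand and is listed at 9.39 FPKM. The sum of the 5 genes of this group was 336.4, 344.2 and 343.2 FPKM with ITGB4 siRNA, below all the control values of 350.2, 349.7 and 351.8 FPKM. EIF4A1 entered this sum at a mean of only 2.54 FPKM, a value that is uncertain (next paragraph), so the sum may leave out part of the eIF4A mRNA. This sum averaged 341.3 FPKM with ITGB4 siRNA and 350.6 with control siRNA, while EIF4H alone averaged 164.0 and 174.3 FPKM. The gap in the sum was thus no larger than that of EIF4H, and the other genes of the group overlapped. EIF4B, with a TOP-like start, was at 102.8 ± 2.35 FPKM with ITGB4 siRNA and 101.7 ± 3.72 FPKM with control siRNA (SD, n = 3 each). EIF4A3, the relative of eIF4A in the exon junction complex, averaged 34.1 ± 0.496 FPKM with ITGB4 siRNA and 35.4 ± 2.54 FPKM with control siRNA.

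EIF4A1, a gene of the eIF4A helicase, had the lowest mean over the 6 libraries of the 48 factors, though not the lowest value in each library, at 2.49, 2.57 and 2.33 FPKM with ITGB4 siRNA, against 2.52, 2.87 and 2.48 FPKM with control siRNA. Its paralog EIF4A2 was at 35.7, 39.0 and 38.9 FPKM with ITGB4 siRNA, against 33.6, 39.0 and 37.3 FPKM with control siRNA. The 183 to 226 reads per library of EIF4A1 compare with 3032 to 3717 for EIF4A2. The EIF4A1 gene (chromosome 17, 7572706 to 7579005, plus strand) is overlapped on its own strand by the readthrough gene SENP3-EIF4A1, itself listed at 0.388 FPKM over the 6 libraries, and how reads shared by both were counted is not given in the sources used here. The processed pseudogene EIF4A1P10, on chromosome X, was listed at 13.8, 15.1 and 15.8 FPKM with ITGB4 siRNA, against 13.01, 11.7 and 11.3 FPKM with control siRNA, which did not overlap (log2 fold change 0.29, unadjusted p = 0.00494, limma adjusted p = 0.519). The choice of EIF4A1P10 followed a look at its values. Because reads of the gene, the readthrough gene and the pseudogene can be alike, the values of EIF4A1 and EIF4A1P10 are uncertain.

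eIF4E binds the cap and its binding proteins hold it back. EIF4E (chromosome 4, 98871684 to 98930637, minus strand) was at 4.65, 5.13 and 4.59 FPKM with ITGB4 siRNA, against 4.21, 4.81 and 4.83 FPKM with control siRNA, over a gene length of 14067 bases (log2 fold change 0.04, 95% interval -0.13 to 0.22). The related cap-binding gene EIF4E2 was at 6.84, 6.37 and 6.10 FPKM with ITGB4 siRNA, against 7.08, 6.85 and 6.56 FPKM with control siRNA (-0.08, limma adjusted p = 0.998). Both genes had overlapping groups.

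None of the binding protein genes separated the groups. EIF4EBP1, the binding protein 4E-BP1, was at 61.3, 52.9 and 55.5 FPKM with ITGB4 siRNA, against 59.7, 50.8 and 56.3 FPKM with control siRNA. EIF4EBP2 was at 40.3, 41.3 and 40.2 FPKM with ITGB4 siRNA, against 39.2, 40.6 and 40.3 FPKM with control siRNA. Both had a log2 fold change of 0.02, with 95% intervals of -0.16 to 0.21 for EIF4EBP1 and -0.07 to 0.11 for EIF4EBP2. EIF4EBP3 was near the floor of detection with 1 to 5 reads per library, at 0.104, 0.284 and 0.279 FPKM with ITGB4 siRNA against 0.0978, 0.488 and 0.380 FPKM with control siRNA. EIF4ENIF1, the transporter 4E-T that takes eIF4E into the nucleus, was at 4.76, 4.14 and 4.05 FPKM with ITGB4 siRNA, against 4.25, 4.23 and 4.12 FPKM with control siRNA. The ratio of EIF4EBP1 plus EIF4EBP2 to EIF4E, in FPKM, was 21.8, 18.3 and 20.8 with ITGB4 siRNA and 23.5, 19.0 and 20.02 with control siRNA (exact two-sided permutation p = 0.9, 1 over the 5 ratios compared).

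eIF4G bridges eIF4E, eIF4A and eIF3. EIF4G2 (chromosome 11, 10797050 to 10809110, minus strand), a relative that lacks the eIF4E binding site, had the highest level of the 3 genes, at 210.3, 228.7 and 222.7 FPKM with ITGB4 siRNA, against 207.3, 237.1 and 219.6 FPKM with control siRNA. EIF4G1, the main scaffold, averaged 121.2 ± 3.11 FPKM with ITGB4 siRNA and 122.4 ± 3.55 FPKM with control siRNA (SD, n = 3 each). Both overlapped between the groups. EIF4G3 (chromosome 1, 20806292 to 21176888, minus strand) was at 14.8, 15.0 and 15.1 FPKM with ITGB4 siRNA, against 15.2, 16.4 and 15.4 FPKM with control siRNA. Its groups did not overlap, by a narrow margin (log2 fold change -0.06, 95% interval -0.17 to 0.05, limma adjusted p = 0.998; exact permutation p = 0.1).

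EIF5A, which carries hypusine and helps ribosomes through difficult stretches, had the highest level of all the factors. EIF5A (chromosome 17, 7306999 to 7312463, plus strand) was at 359.8, 358.0 and 353.6 FPKM with ITGB4 siRNA, against 360.4, 334.2 and 344.5 FPKM with control siRNA, and the groups overlapped (log2 fold change 0.04, 95% interval -0.05 to 0.14). Its paralog EIF5A2 (chromosome 3, 170888415 to 170908693, minus strand) is known for amplification in some cancers. It was at 55.0, 58.8 and 61.4 FPKM with ITGB4 siRNA, against 59.1, 74.2 and 70.1 FPKM with control siRNA. Control library 1 lay among the ITGB4 siRNA libraries and the other 2 controls above all of them. The difference of -13.9% was the largest in size among the 48 factors on the log2 scale (-0.21, SE 0.0888, 95% interval -0.42 to 0.00) and did not pass (unadjusted p = 0.0522, limma adjusted p = 0.854). It depended on control library 1, without which it was -0.30 (adjusted p = 0.23, the lowest of all alternatives, which reached 0.9999), and on control library 2, without which it was -0.14. The ratio of EIF5A to EIF5A2 was 6.55, 6.09 and 5.76 with ITGB4 siRNA and 6.09, 4.51 and 4.91 with control siRNA (exact permutation p = 0.3, 0.667 over the 5 ratios).

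EIF5, which triggers GTP hydrolysis on eIF2, averaged 43.2 ± 0.566 FPKM with ITGB4 siRNA and 41.0 ± 3.68 FPKM with control siRNA, and EIF5B, which joins the subunits, 35.9 ± 1.76 FPKM with ITGB4 siRNA and 34.8 ± 3.09 FPKM with control siRNA (SD, n = 3 each). EIF5AL1, a near copy of EIF5A without introns, was listed at 5.67 ± 0.327 FPKM with ITGB4 siRNA and 5.91 ± 0.258 FPKM with control siRNA, and its values are uncertain because reads may be shared with EIF5A.

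EIF6, the factor that also binds integrin β4, had nearly the same mean in both groups. It (chromosome 20, 35278911 to 35284985, minus strand) was at 90.4, 86.8 and 85.8 FPKM with ITGB4 siRNA, against 94.4, 81.2 and 87.9 FPKM with control siRNA, and all the ITGB4 siRNA values were inside the control range. The log2 fold change was 0.00 (SE 0.0607, 95% interval -0.14 to 0.14, limma adjusted p = 0.9999).

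**Figure D3:**
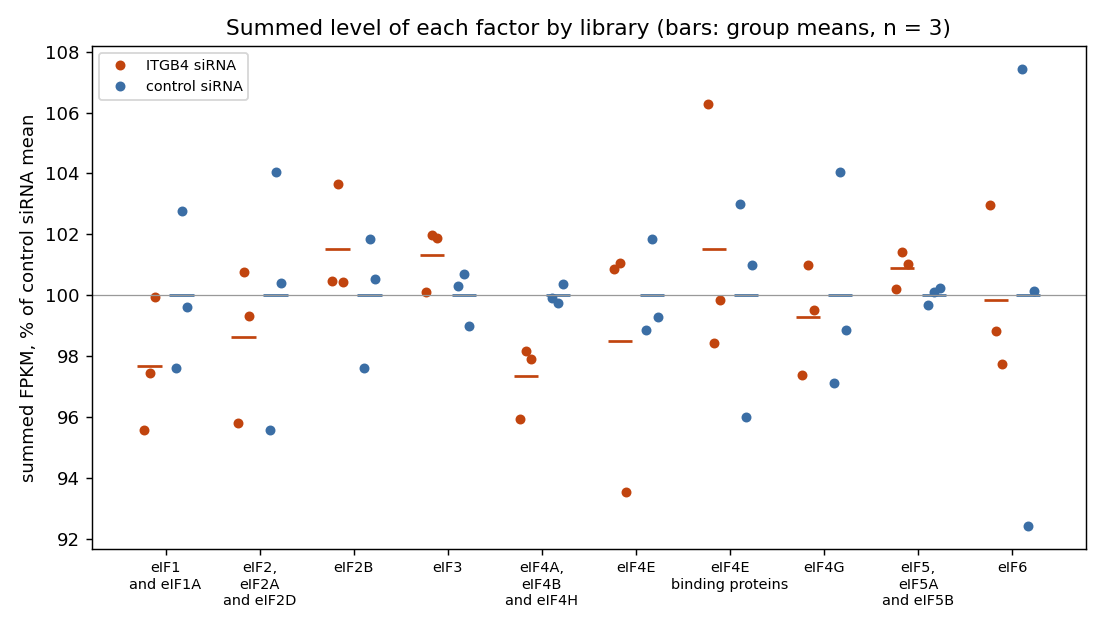
Each point is the summed FPKM of a factor's genes in a library, as a percentage of the mean of the control siRNA libraries, and the bars are group means (n = 3 each). The points of eIF4A, eIF4B and eIF4H separate (336.4 to 344.2 FPKM with ITGB4 siRNA, 349.7 to 351.8 FPKM with control siRNA), and those of the other 9 groups overlap. Within the group that separates, EIF4H is the only gene whose own values do so, and EIF4A1 enters at an uncertain mean of 2.54 FPKM.

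Summed over all 52 genes, the factors reached 2489, 2536 and 2525 FPKM with ITGB4 siRNA, against 2503, 2549 and 2517 FPKM with control siRNA, a difference of -0.258%. In 17 of the 48 factors (35.4%) the library numbered 1 was the lowest of its group with both siRNAs, among them EIF5, EIF5B, EIF2A, EIF4A2, EIF4G2, EIF1AX and EIF5A2. Over all genes tested this was so in 23.1%. The library numbered 2 was lowest in both groups in 4 factors (8.33%, all genes 16.0%) and that numbered 3 in 5 (10.4%, all genes 7.42%). The labels do not say whether the numbers mark a shared day or batch.

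**Figure D4:**
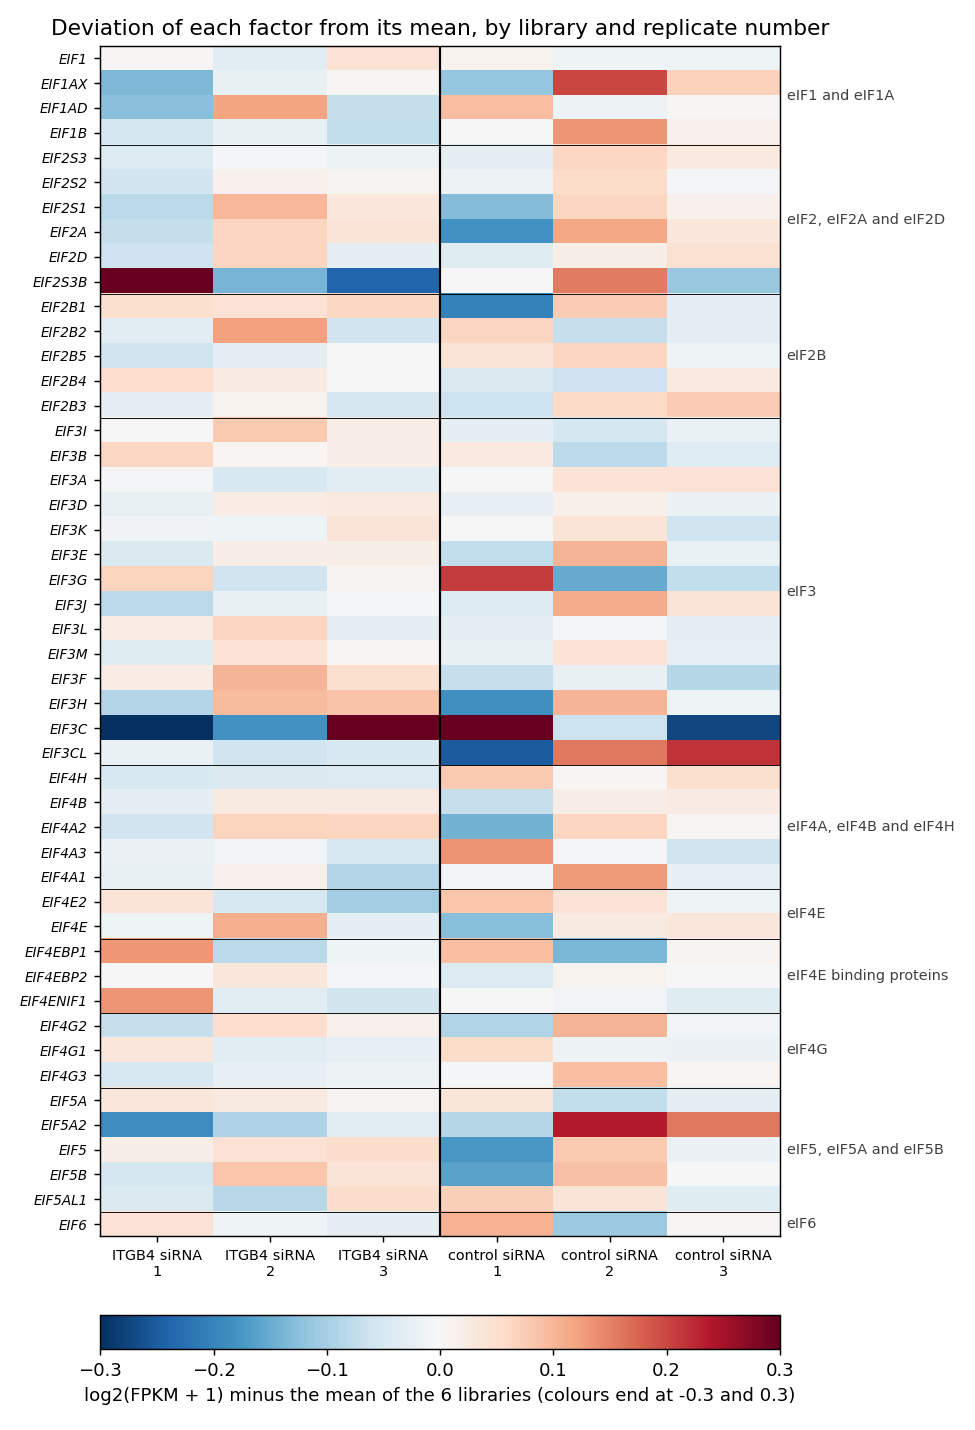
Colours show log2(FPKM + 1) of each factor in each library minus its mean over the 6 libraries, with ITGB4 siRNA on the left and control siRNA on the right, numbered by replicate. Blue cells recur in the columns numbered 1 of both groups (17 of 48 factors lowest there in both), and EIF3C has the most saturated row.

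Other rows of the table carry initiation factor names and are no members. There were 77, of which 68 are processed pseudogenes and 11 of these were tested. EIF1AXP1 was listed at 58.8 FPKM over the 6 libraries, above EIF1AX itself at 49.3 per length, but not in reads. It had 326 to 420 reads per library over 435 bases, against 2739 to 3715 over 4427 bases for EIF1AX. EIF5AP4 was listed at 32.3 FPKM over the 6 libraries. How reads shared with such copies were counted is not given in the sources used here. EIF4HP2 was listed at 1.15, 2.33 and 1.14 FPKM with ITGB4 siRNA, against 0.240, 0.360 and 1.05 FPKM with control siRNA (limma adjusted p = 0.799). These values rest on only 2 to 20 reads per library. EIF1AXP1, EIF3FP3, EIF5AP4 and EIF4HP2 were picked after their values were seen. Of the 48 tested factors, 22 overlap another tested gene, 21 of them on the opposite strand, and the labels do not say whether the libraries kept the strand.

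None of the tested translation factors on a list from outside this family was called either. Of 32 listed translation factors with other symbols, such as poly(A)-binding proteins, elongation and release factors, 30 were tested, 16 above 0 and 14 below, with a median of 0.01. EEF1G and GSPT2 were listed at 0 FPKM in each library and were not tested. Another elongation factor, EEF1A1, averaged 1478 FPKM over the 6 libraries. Whether the 0 of EEF1G reflects how reads were assigned was not tested. An adjusted p under 0.05 was reached by 0 in limma, against 0.0466% of all genes tested. An unadjusted p under 0.05 was also reached by 0, against 5.83% of all genes tested. PABPC4, a poly(A)-binding protein, was at 52.4 ± 1.65 FPKM with ITGB4 siRNA and 49.9 ± 0.745 FPKM with control siRNA, and DDX3X, an RNA helicase, at 44.9 ± 1.27 FPKM with ITGB4 siRNA and 47.9 ± 2.74 FPKM with control siRNA (SD, n = 3 each). DHX29, a helicase of scanning, and PAIP2B, which restrains poly(A)-binding protein, had log2 fold changes of 0.09 and -0.13 (limma adjusted p = 0.981 and 0.993).

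Of the 22 kinases, phosphatases and upstream regulators of the factors, all were tested, 9 above 0 and 13 below, with a median of -0.01. Limma called 0, against 0.0466% of all genes tested. At an unadjusted p under 0.05 there was 1, against 5.83% of all genes tested. This was PPP1R15B, the subunit that directs a phosphatase to eIF2α in unstressed cells, at 13.6, 13.5 and 12.6 FPKM with ITGB4 siRNA, against 16.7, 16.7 and 16.99 FPKM with control siRNA. The groups did not overlap, and each was narrow beside the gap between them (log2 fold change -0.32, unadjusted p = 2.8e-04, limma adjusted p = 0.148). It passed over all genes with limma-voom on the recovered reads (-0.34, adjusted p = 0.0423), while its adjusted p ran from 0.0996 to 0.623 over the other alternatives. EEF2K, the kinase of elongation factor eEF2, MKNK1 and MKNK2, kinases of eIF4E, had log2 fold changes of 0.11, 0.16 and 0.25, with limma adjusted p of 0.915, 0.928 and 0.945. With limma-voom the unadjusted p of MKNK1 and MKNK2 was 0.0391 and 0.0277, and their adjusted p was 0.828 and 0.756.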

How the data were processed

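Poly-T captured RNA of SW480 cells was sequenced in 6 libraries. The authors deposited FPKM per library on GRCh38, per the submitters' processing notes, with each gene's length and a mean per group. The notes name DESeq2 and edgeR without a role. The aligner and counting tool are not given in the sources used here. Multiplied by length, 100% of the deposited FPKM values were whole multiples of 1 read (tolerance 0.01), which gave reads per gene.

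Groups follow the sample titles. Genes with a mean of at least 1 FPKM over the 6 libraries (12871) were fitted as log2(FPKM + 1) with limma 3.58.1 (trend, no replicate term) in R 4.3.3, two-sided, with Benjamini-Hochberg adjustment and 95% intervals. The recovered reads were also fitted with limma-voom. Fold changes on this scale understate those of low genes. Promoter words were counted in Python 3.11.15. P-values measure the spread between these libraries only.

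The members, gene groups and lists were chosen with earlier results of these data known. Values in every library are given for factors with an unadjusted p under 0.05, for the highest and the smallest-p gene of each factor, and for EIF6 and the binding proteins. Up to 4 genes per pathway list are named. Other named genes (EIF4E, EIF3A, EIF3C, EIF3CL, EIF4A1, EIF4A2 and those given as means) were chosen after their values were seen.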

Additional observations from a re-analysis of the deposited data

How the results depend on the processing

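Under every setting run, 0 initiation factors were called changed. Of 619 comparisons of single factors with their reported value, 579 kept direction and side of the threshold, and in 40, of 23 factors, the sign turned. Over all the factors and settings the lowest adjusted p was 0.23, for EIF5A2, which kept its sign; among factors that turned sign it was 0.393, for EIF3CL. When single libraries were left out, the factors that turned sign ran over these log2 fold changes: EIF2D -0.0553 to 0.00859, EIF3C -0.336 to 0.105, EIF3E -0.0437 to 0.0435, EIF3G -0.062 to 0.118, EIF4EBP1 -0.0376 to 0.076, EIF4ENIF1 -0.0287 to 0.0655, EIF4G2 -0.0494 to 0.0471, EIF6 -0.0548 to 0.0526, EIF2A -0.0651 to 0.0841, EIF2B2 -0.0361 to 0.058, EIF2S1 -0.022 to 0.0834, EIF2S3B -0.202 to 0.0819, EIF3M -0.0139 to 0.0266, EIF1 -0.0107 to 0.0285, EIF3K -0.0146 to 0.0345, EIF3H -0.0136 to 0.13, EIF4A2 -0.0101 to 0.0935, EIF4A3 -0.0899 to 0.00707, EIF4B -0.0141 to 0.0353, EIF4E -0.00802 to 0.0723, EIF4G1 -0.0345 to 0.0102, EIF5B -0.0213 to 0.103, EIF3CL -0.229 to 0.00438. As TPM, EIF4G2 was at 0.0014. The median over the factors stayed between -0.014 and 0.009.

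The number of factors at an unadjusted p under 0.05 was 1 with no filter on low values and 1 as TPM (EIF3F in both), and 0 to 4 when leaving out 1 library, the 4 (EIF1AX, EIF3CL, EIF3J and EIF5A2) without control siRNA replicate 1. It stayed at 2 with a mean of at least 5 FPKM, with limma-voom and with the replicate block, but EIF5A2 stood in place of EIF4H (unadjusted p of EIF5A2 0.0424, 0.0132 and 0.0122, and of EIF4H 0.0617, 0.063 and 0.0538). With no filter on low values limma called 0 genes of 31956 (1356 at an unadjusted p under 0.05), and ITGB4 stood at -0.81 (adjusted p = 0.0618). Limma-voom called 27 genes; the cause was not tested. Leaving out 1 library gave 0 to 7 called genes and ITGB4 from -0.87 to -0.76 (adjusted p 0.0309 to 0.137), with fewer libraries in the fit.

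The replicate block called 0 genes (1064 at an unadjusted p under 0.05) and 0 factors, and ITGB4 stood at -0.81 (adjusted p = 0.0564). EIF5A2 had an adjusted p of 0.47 with the block, and MKNK2 had an unadjusted p of 0.0191 (adjusted p = 0.517). As a check of pairing, residuals after removing group means were correlated between libraries. The r was 0.173 for the 2 libraries numbered 1, 0.102 for those numbered 2 and -0.01 for those numbered 3. Pairs with unlike numbers had r from -0.174 to 0.0862. Numbers 1 and 2 thus lay above the unlike pairs and number 3 among them, so whether a shared number pairs the libraries is not settled.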
